A study of Hydractinia symbiolongicarpus with 45 samples.

Results

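The 9 poly(A)+ libraries described here are part of a series of 45 samples. They hold RNA of whole larvae and of unfertilized eggs of the colonial hydrozoan Hydractinia symbiolongicarpus, a cnidarian. The larvae were collected at 24, 48 and 72 hours post fertilization (h), with 2 libraries at each stage, one from clutch E and one from clutch F. The eggs had 3 libraries, from clutches A, C and D. All samples were wild type and untreated. Members were chosen by sample label alone, and the comparison takes the 3 larval stages together against the egg, over 18928 of 22022 gene models that had enough reads to be tested.

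Poly(A)+ selection captures RNA by its poly(A) tail, so an RNA that lost its tail reads as lower even where the molecule is still present. Larvae and eggs shared 0 clutches, so clutch and stage cannot be told apart. The extraction notes in the labels say that some particulate matter was left after grinding at the larval stages, and this too went with stage. The 6 larval libraries came from 2 clutches, and whether the eggs of a clutch letter came from one or several females is not given in the labels. In whole-animal RNA, fewer cells of a type and less RNA per cell cannot be told apart.

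An egg carries messenger RNA laid down by the mother, which directs the first cell divisions before the embryo transcribes its own genome. During the maternal-to-zygotic transition the embryo switches on its genome and clears part of the maternal RNA. A Hydractinia embryo then becomes a planula, a ciliated larva that swims or crawls until it settles and turns into a polyp. What all larval stages have in common against the egg therefore combines maternal RNA that is gone, zygotic RNA that has appeared, and RNA made by both.

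The larval libraries held 10802851 to 16424648 counts (median 13904300), against 20530081 to 30039305 in the egg libraries (median 20670761). Across genes, log2 CPM (counts scaled to the library total) correlated at r = 0.694 to 0.731 in the 18 pairs of a larva with an egg library. The r was 0.993 to 0.996 in the 3 egg pairs, 0.958 to 0.976 in the 3 pairs of larval libraries of one stage, and 0.917 to 0.965 in the 12 larval pairs across stages. Genes are not independent replicates, and these r are given as a description. No marker genes of larval cell types come with the gene identifiers, so the labels were checked only by these correlations and by 4 maternal genes given below, all of them lower in all 6 larval libraries than in any egg library. The 4 are H1.4, HyS0034.48, Etv3 and Rfx7. The study listed them as maternal from this same series, and Etv3 and Rfx7 in part because later stages had less. Their direction is therefore not an independent check of the labels.

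Most gene models differed between larvae and egg, 15022 of them (79.4% of those tested) by edgeR's quasi-likelihood F test at an adjusted p under 0.05. In larvae 9326 (49.3%) were higher than in the egg and 5696 (30.09%) were lower. In 32.6% of models every larval library lay above every egg library in TPM, and in 36.0% every larval library lay below. Of the higher models 8069 rose by at least 2-fold and 5631 by at least 16-fold on the fitted scale, and 3489 had 0 counts in every egg library. Of the lower models 3652 fell by at least 2-fold and 320 by at least 16-fold, and 37 had 0 counts in every larval library. The shares differed with the level in the egg, in part because a model near 0 in the egg can hardly be called lower. Among 7817 models under 1 TPM (a library-scaled count that also allows for coding length) in the egg, 77.2% were higher and 1.16% lower in larvae, and among 5091 models at 50 TPM or more in the egg, 20.9% were higher and 63.9% lower. The models that were higher in larvae had a median coding length of 1068 bases, the lower ones 1488 bases and those that passed in neither direction 1002 bases.

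Larval RNA was concentrated on fewer gene models, and the split into higher and lower depended on how libraries were put on one scale. The median log2 fold change over all 18928 models was 0.85 with the TMM scaling used throughout, 1.05 with RLE size factors and 0.44 with library size alone. The share of called models that were higher was 62.1% with TMM, 66.7% with RLE and 54.3% with library size alone. Under 5 scalings 8263 higher and 4989 lower models were called each time, 88.6% and 87.6% of the calls. Each log2 fold change below is therefore read against this median of 0.85, and a rise of about that size is not a rise in TPM. Of the 9326 higher models 809 had a lower mean TPM in larvae than in the egg, while 0 of the lower models had a higher one. With the counts of each larval clutch summed to 1 library, which leaves 2 larval samples, 97.7% of the higher and 97.8% of the lower calls were made again.

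**Figure D1:**
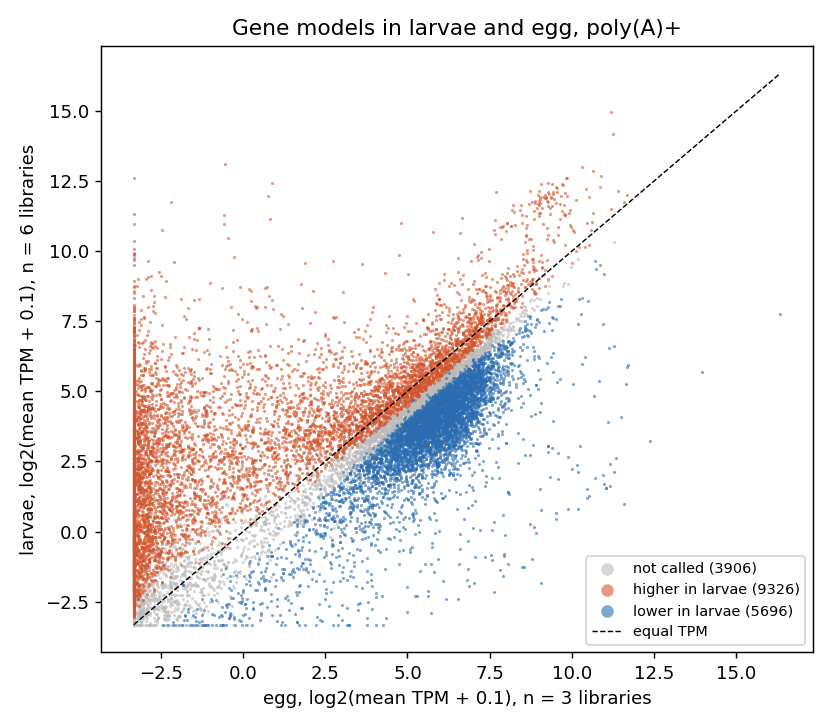
Mean level of each of 18928 tested gene models in larvae (vertical axis, 6 libraries) and egg (horizontal axis, 3 libraries) as log2(mean TPM + 0.1). Colours mark the 9326 models called higher in larvae, the 5696 called lower and the 3906 called in neither direction. The dashed line marks equal TPM, and the column of points at the left edge holds models with no counts in the egg.

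The larval transcriptome held more kinds of RNA. Between 14171 and 14803 gene models reached 1 TPM in larval libraries (median 14591), against 11031 to 11117 in egg libraries (median 11104), with no overlap. The means were 14529 ± 259 models in larvae (SD, n = 6) and 11084 ± 46.4 in eggs (SD, n = 3), a difference of 3445 (exact permutation test, two-sided p = 0.0238, 0.0357 after adjustment over 3 tests). This p is the smallest that 6 against 3 libraries allow, and it treats larval libraries of one clutch as independent, which they are not. Thinned to the 10802851 counts of the shallowest library, larvae had 14154 to 14825 models at 1 TPM and eggs 11020 to 11089.

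At the same time the most abundant RNAs took more of the larval libraries. The 100 most abundant gene models held 24.8 and 26.4% of counts at 24 h, 32.3 and 27.9% at 48 h and 34.6 and 34.8% at 72 h, against 17.4, 15.5 and 15.8% in the egg, again with no overlap (exact permutation p = 0.0238, adjusted 0.0357). It took 290 to 747 models to reach 50% of the counts in larvae, against 1222 to 1363 in eggs. The 2 libraries at 24 h had the lowest shares of the larvae and the 2 at 72 h the highest. Models under 1 TPM in every egg library held 8.29 to 12.3% of larval TPM, and 0.0508 to 0.0540% of egg TPM, where the rule itself keeps them low.

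**Figure D2:**
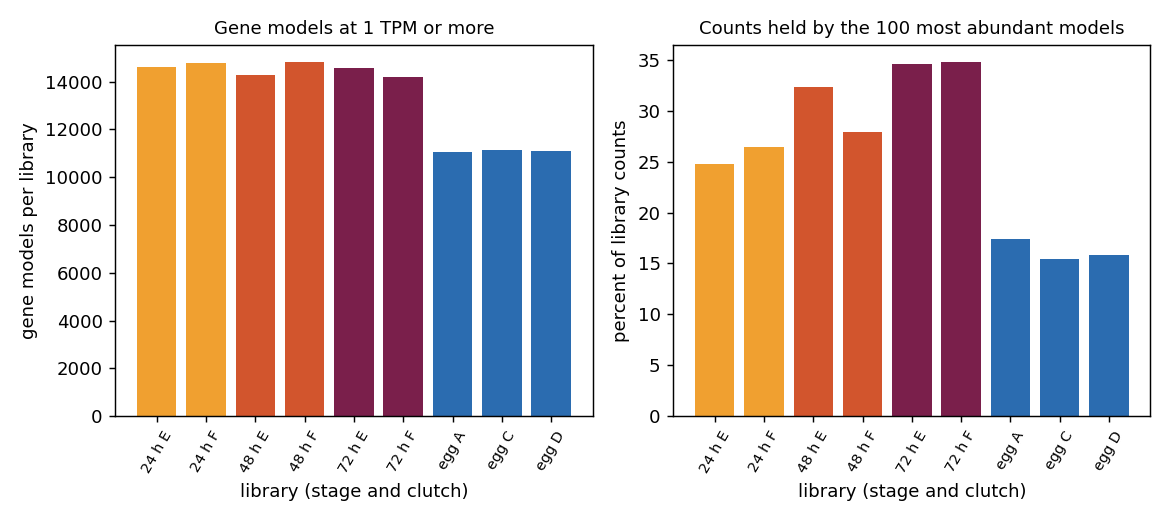
Left, number of gene models at 1 TPM or more in each larval library (24, 48 and 72 h, clutches E and F) and egg library (clutches A, C and D). Right, percent of each library's counts held by its 100 most abundant models. All 6 larval bars stand above all 3 egg bars in both panels.

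The maternal linker histone H1.4 was far lower in larvae than in the egg at each larval stage. Linker histones bind the DNA between nucleosomes, and many animals have a special form in the egg. The gene has 2 models, HyS0030.125 and HyS2746.2, with the same coding sequence, so reads are split evenly between them and each carries the same values. Each had 9.28 and 10.2 TPM at 24 h, 5.90 and 5.34 TPM at 48 h and 9.90 and 7.94 TPM at 72 h, against 658, 578 and 602 TPM in the 3 egg libraries. No larval library came near an egg library, and the log2 fold change was -5.51 (standard error 0.14, edgeR adjusted p = 8.3e-16). At 7 h the poly(A)+ mean was still 533 TPM per model, so the low level was first seen at 24 h. Libraries made by rRNA depletion do not depend on a poly(A) tail. There the 2 models together had 680 to 833 TPM in the egg and 387 TPM at 7 h (1 library, clutch B). Embryos kept in 0.5% DMSO had 603 and 564 TPM at 7 h.

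Of 5 transcription factors taken from the longer set that the study listed as maternal, 4 were lower in larvae, beside 30.09% of all models. Those 4 had egg means above 50 TPM, where 63.9% of models were lower. The study chose Etv3, Rfx7, E2f2 and Sox4 in part because later stages had less than the egg, so their direction is not independent evidence. The rest of that set, a gene like vertebrate Sox2 among them, was not analysed here. Rfx7 (HyS0003.78), an RFX-family DNA-binding protein, had 22.4 and 17.4 TPM at 24 h, 5.29 and 8.21 TPM at 48 h and 2.91 and 1.95 TPM at 72 h, against 318, 402 and 385 TPM in the egg. Its log2 fold change was -4.97 (standard error 0.15, edgeR adjusted p = 4.08e-15). E2f2 (HyS0045.22), a member of the E2F family that controls genes of DNA replication, had 6.37 to 57.7 TPM in larvae (median 10.2 TPM), against 287, 397 and 361 TPM in the egg, a log2 fold change of -3.73 (standard error 0.14, edgeR adjusted p = 6.39e-14). Sox4 (HyS0005.469), of the HMG-box SOX family, kept more of its RNA, with 20.1 to 76.5 TPM in larvae (median 37.8 TPM), against 182, 202 and 200 TPM in the egg. Its log2 fold change was -1.42 (standard error 0.14, edgeR adjusted p = 4.17e-08).

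Etv3 (HyS0030.200), of the ETS family, ran the other way within the larval stages. It had 0.304 and 1.21 TPM at 24 h, 1.58 and 6.39 TPM at 48 h and 4.37 and 9.44 TPM at 72 h, against 160, 168 and 169 TPM in the egg. The larval mean lay far under the egg (log2 fold change -5.14, standard error 0.30, edgeR adjusted p = 2.43e-11), yet 72 h was above 24 h by 3.71 on the log2 scale (standard error 0.57, edgeR adjusted p = 0.000101). Rfx7 and E2f2 fell over the same interval, with log2 fold changes of -2.59 (standard error 0.23) and -2.25 (standard error 0.21), and Sox4 fell with -0.93 (standard error 0.21). The edgeR adjusted p of these 3 differences were 2.34e-07, 4.6e-07 and 0.00307. All 4 were among the 4719 models (24.9% of those tested) whose level differed among the 3 larval stages by edgeR's F test. DESeq2's likelihood ratio test called Etv3, Rfx7 and E2f2 but not Sox4 (adjusted p = 0.0873).

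Polynem (HyS0098.14), a POU-domain gene that in Hydractinia echinata is tied to stem cells, did not pass the test. It had 15.8 to 18.9 TPM in larvae (median 17.3 TPM), against 18.7, 43.4 and 39.1 TPM in the egg, where clutch A stood apart and lay within the larval range. The log2 fold change was -0.17 (standard error 0.23, edgeR adjusted p = 0.51), and its sign turned with the scaling, to 0.044 with RLE size factors (adjusted p = 0.901) and 0.043 with DESeq2 (adjusted p = 0.871). With library size alone it was -0.59 (edgeR adjusted p = 0.0325), and with egg clutch A left out it was -0.71 (edgeR adjusted p = 0.00643).

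**Figure D3:**
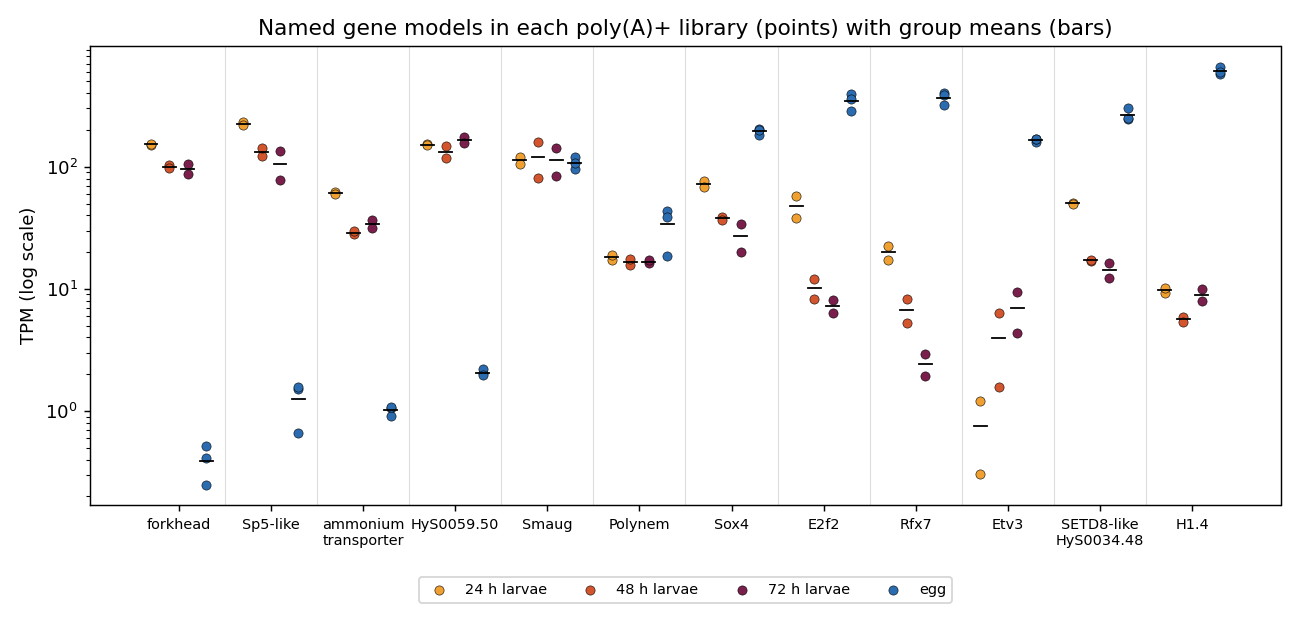
TPM of 12 named gene models on a log scale in each library, with larvae at 24, 48 and 72 h (2 points each) to the left of the egg (3 points). Short bars are group means. Forkhead, Sp5-like, the ammonium transporter and HyS0059.50 sit above the egg in all 6 larval libraries, Smaug and Polynem overlap it, and the remaining 6 sit below it.

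Predicted histone H4 lysine 20 (H4K20) methyltransferases changed places between egg and larva. These genes encode a SET domain like that of KMT5A (also called SETD8), the enzyme that in other animals puts the first methyl group on H4K20, a mark tied to replication and chromatin compaction. The study sorted 24 such models by when they were first seen in these same embryos, 2 as maternal, 13 as activated by 4 h and 9 as activated by 7 h. The low egg level of the last 22 was part of that choice, so it is not independent evidence, while the larval libraries were not used for it.

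Both maternal models were lower in larvae. HyS0034.48 had 50.6 and 49.96 TPM at 24 h, 16.8 and 17.4 TPM at 48 h and 12.3 and 16.24 TPM at 72 h, against 303, 246 and 251 TPM in the egg (log2 fold change -2.76, standard error 0.14, edgeR adjusted p = 5.21e-12). The decline was not complete at 24 h, and 72 h was lower than 24 h, at a log2 fold change of -1.34 (standard error 0.22, edgeR adjusted p = 0.000168). HyS0117.8 had 5.18 and 0.710 TPM at 24 h, 0.000995 and 0 TPM at 48 h and 0.000771 and 3.94 TPM at 72 h, against 13.03, 13.98 and 14.75 TPM in the egg. Its larval libraries differed widely within a stage (log2 fold change -4.64, standard error 0.87, edgeR adjusted p = 0.000116), and its call was lost when all larvae were fitted as 1 group (adjusted p = 0.0887).

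All 13 models activated by 4 h and all 9 activated by 7 h were higher in larvae, beside 49.3% of all models tested. All of them but HyS0109.11 had egg means under 1 TPM, where 77.2% of models were higher. For the 13, the median log2 fold change was 7.60 with the 6 models at 0 counts in every egg library set to their bound, a floor of 3 counts per library, and for the 9 it was 5.13 with 4 such models. The same median over all 18928 models was 0.37. HyS0001.141 was the most abundant of the 13 in larvae, with 33.8 to 71.6 TPM (median 39.9 TPM) and 0 counts in every egg library, at least 879-fold higher. HyS0111.12 had 23.3 to 37.3 TPM in larvae (median 28.4 TPM), against 0, 0.119 and 0.0638 TPM in the egg (log2 fold change 9.78, standard error 0.80, edgeR adjusted p = 2.85e-09). HyS0050.112 had 12.1 to 38.7 TPM in larvae (median 25.6 TPM) and 0 counts in the egg, at least 194-fold higher.

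Not every one of the 13 was abundant. HyS0067.72 had 0 to 0.664 TPM in larvae and HyS0035.153 had 0 to 0.486 TPM, both at 0 counts in every egg library, and in each the larval range reached the egg value. Their calls (edgeR adjusted p = 0.0202 and 0.0029) were lost with DESeq2 (adjusted p = 0.333 and 0.226) and without single libraries. At these levels a difference from the egg is barely detectable. Among the 9, HyS0114.13 had 15.4 to 26.1 TPM in larvae (median 23.0 TPM), against 0.0412, 0 and 0.0627 TPM in the egg. That is 2 counts over the egg libraries, a CPM ratio of 768 with a counting interval of 212 to 6340. In egg libraries made by rRNA depletion, which do not depend on a poly(A) tail, HyS0114.13 had a mean of 1.18 TPM (SD 0.33). The ratio therefore holds for poly(A)+ RNA only. HyS0109.11 alone among the 22 had a clear level in poly(A)+ eggs. It had 6.31 to 14.7 TPM in larvae (median 11.6 TPM), against 2.42, 2.38 and 2.74 TPM in the egg (log2 fold change 2.92, standard error 0.16, edgeR adjusted p = 1.06e-11).

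Summed over the list, the 13 models had 123 to 238 TPM in larvae (median 164 TPM), against 0.136 to 0.169 TPM in the egg. At 7 h their sum was 398 and 448 TPM, above every larval library. The 9 models summed to 39.5 to 70.0 TPM in larvae (median 63.8 TPM), against 2.59 to 3.40 TPM in the egg, and to 38.9 and 49.2 TPM at 7 h. The 2 maternal models summed to 12.3 to 55.8 TPM in larvae, against 260 to 316 TPM in the egg. In every larval library the 13 models together exceeded the 2 maternal ones, and in every egg library the order was reversed. The 13 already exceeded the maternal models at 7 h, when the 2 maternal models summed to 288 and 338 TPM. Both maternal models differed among the larval stages by edgeR's F test, as 24.9% of all models did, while DESeq2's likelihood ratio test over the 6 larval libraries called HyS0034.48 (adjusted p = 2.28e-05) and not HyS0117.8 (adjusted p = 0.562). Of the 22 activated models 0 passed edgeR's test, with 0 at an unadjusted p under 0.05, and 1 passed DESeq2's (HyS0050.112, adjusted p = 0.0121). Whether maternal and activated models differ in this was not tested.

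**Figure D4:**
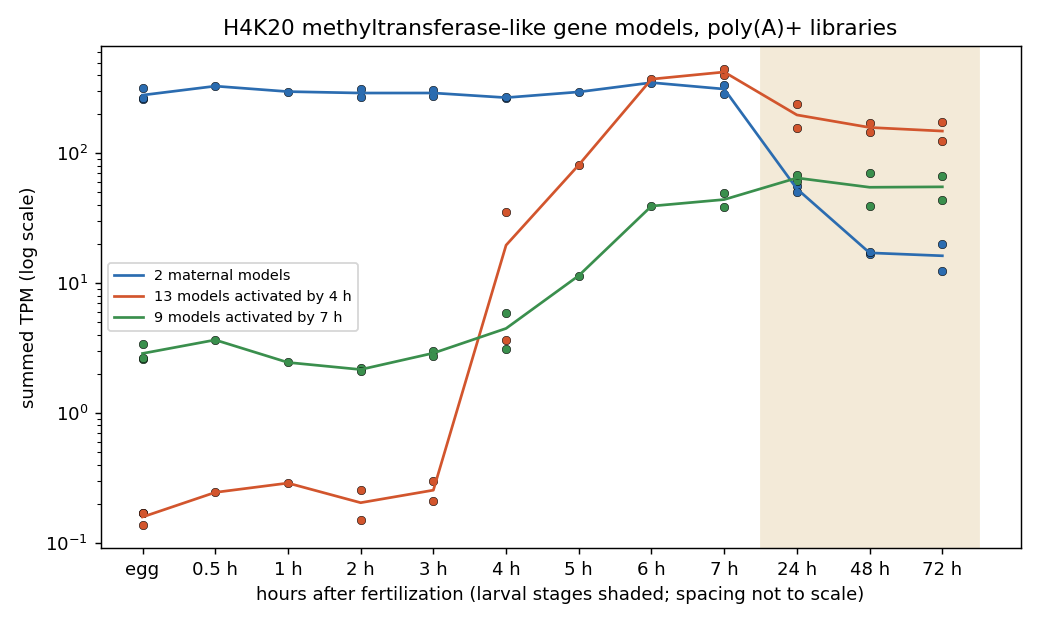
Summed TPM of 2 maternal, 13 and 9 predicted H4K20 methyltransferase models in each poly(A)+ library from egg to 72 h on a log scale. Points are libraries, lines join stage means, and larval stages are shaded. The maternal sum is 12.3 to 55.8 TPM in larvae and 260 to 316 TPM in the egg, and the sum of the 13 models is 123 to 238 TPM in larvae and under 1 TPM in the egg.

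The transcription factors switched on early stayed on in larvae. The forkhead-domain gene HyS0062.47, of a family with roles in endoderm and axis formation in other animals, had 87.0 to 155 TPM in larvae (median 104 TPM), against 0.409, 0.513 and 0.250 TPM in the egg (log2 fold change 8.92, standard error 0.83, edgeR adjusted p = 1.75e-08). At 7 h its mean was 492 TPM. The Sp5-like zinc finger gene HyS0057.112, whose relatives in other animals are targets of Wnt signalling, had 78.3 to 234 TPM in larvae (median 137 TPM), against 0.664, 1.50 and 1.57 TPM in the egg (log2 fold change 7.71, standard error 0.58, edgeR adjusted p = 9.59e-10). The egg levels were part of why the study listed both, and every larval library lay above every egg library.

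The predicted ammonium transporter HyS0101.18, of a family that moves ammonium across membranes, was higher in larvae than in the egg. It had 62.2 and 59.3 TPM at 24 h, 27.9 and 29.9 TPM at 48 h and 36.3 and 31.8 TPM at 72 h, against 1.06, 0.902 and 1.07 TPM in the egg and a mean of 1068 TPM at 7 h. The log2 fold change of larvae over egg was 6.03 (standard error 0.64, edgeR adjusted p = 9.44e-08). HyS0059.50, which has no name in the files, had a mean of 7.73 TPM at 4 h and 100.5 TPM at 7 h, and it had 119 to 176 TPM in larvae (median 152 TPM), against 2.03, 2.19 and 1.97 TPM in the egg (log2 fold change 6.94, standard error 0.53, edgeR adjusted p = 1.14e-09).

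All 5 retrovirus-related open reading frames named by the study were higher in larvae. This stands beside 49.3% of all models tested and 77.2% of models under 1 TPM in the egg. The study took the 5 from genes activated in these embryos. Their low egg level was part of that choice, so it is not independent evidence. Such frames derive from transposable elements, and reads from near-identical copies elsewhere may be split among models. HyS4714.1 had 32.1 to 64.0 TPM in larvae (median 52.1 TPM), against 0.144, 0.222 and 0.149 TPM in the egg (log2 fold change 8.91, standard error 0.59, edgeR adjusted p = 1.77e-10). HyS4716.1 had 16.3 to 33.8 TPM in larvae and HyS4654.1 had 21.3 to 35.6 TPM, each with 2 counts over the 3 egg libraries after rounding. Their CPM ratios were 2760 (counting interval 764 to 22800) and 2350 (649 to 19400). In rRNA-depleted eggs their means were 0.446 TPM (SD 0.14) and 0.338 TPM (SD 0.36), against 0.0168 and 0.0185 TPM in poly(A)+ eggs. These ratios therefore hold for poly(A)+ RNA only. HyS0422.6 stayed low, with 0.0994 to 1.13 TPM in larvae and 0 counts in the egg, and HyS4764.1 had 0.0436 to 2.10 TPM in larvae, against 0.0290, 0 and 0 TPM in the egg.

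Smaug and 2 models listed beside it did not move together. The study proposes Smaug as a factor in clearance, while it names HyS0020.263 as a cleared message. The fall of HyS0020.263 after the egg was part of that choice, so its direction is not independent evidence. HyS0042.69 was taken from earlier results of these data. Smaug (HyS0016.179), an RNA-binding protein that in Drosophila represses and destabilizes maternal messages, had 81.2 to 158 TPM in larvae, against 95.3, 121 and 107 TPM in the egg. Of its larval libraries 2 lay under every egg library, 2 over every one and 2 between, so the groups overlapped. It was called higher, the log2 fold change being 0.85 (standard error 0.15, edgeR adjusted p = 5.34e-05), which is the median shift of all models and not a change relative to them. The predicted metabotropic glutamate receptor HyS0020.263 had 1.395 to 4.38 TPM in larvae (median 2.78 TPM), against 16.0, 19.1 and 13.96 TPM in the egg (log2 fold change -1.85, standard error 0.16, edgeR adjusted p = 6.09e-09). HyS0042.69 had 11.0 to 20.4 TPM in larvae (median 17.6 TPM), against 106, 116 and 103 TPM in the egg (log2 fold change -1.95, standard error 0.13, edgeR adjusted p = 1.78e-10).

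The histone cluster of scaffold HyS0385 stood apart from the loss of H1.4. Most core histone messages of animals end in a stem-loop without a poly(A) tail, so poly(A)+ libraries hold little of them. The 44 models there have 7 distinct sets of counts, since copies with the same sequence share reads. The 44 together held 0.000473 to 0.00761% of larval counts (median 0.000742%), against 0.000616 to 0.000758% of egg counts, and the ranges overlapped (exact permutation p = 0.619, adjusted 0.619). The 2 libraries at 24 h were the highest, at 0.00351 and 0.00761%, and the other 4 larval libraries reached 0.000759% at most. Of the 44 models 8 were higher and 0 lower by edgeR (0 lower at an unadjusted p under 0.05, 0 lower by DESeq2), beside 49.3% higher and 30.09% lower over all models. Among larval stages 35 differed by edgeR's F test, beside 24.9% of all models. By DESeq2's likelihood ratio test 8 differed, beside 3485 of 16464 models. Models that share counts pass or fail together, so these are not counts of independent members.

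The 8 higher models were copies of one sequence of 552 bases (HyS0385.5), which has 33 copies in all. Summed over its copies it had 125 and 418 TPM at 24 h, 7.80 and 15.8 TPM at 48 h and 6.09 and 23.0 TPM at 72 h, against 0.632, 0 and 0.462 TPM in the egg (edgeR adjusted p = 0.000296 with copies summed). Every larval library lay above every egg library. With copies summed, a sequence of 411 bases with 39 copies (HyS0385.1) was also higher, with 86.7 and 79.1 TPM at 24 h, 14.9 and 21.5 TPM at 48 h and 7.99 and 8.15 TPM at 72 h, against 20.5, 19.2 and 15.5 TPM in the egg (log2 fold change 1.02, edgeR adjusted p = 0.0077). Its groups overlapped, it was close to the median shift of all models, and its single models did not pass. The sequence HyS0385.18 was just outside the threshold (log2 fold change 1.46, edgeR adjusted p = 0.0502). The most abundant set in poly(A)+ eggs, a sequence of 405 bases with 32 copies (HyS0385.2), had 78.4 and 76.3 TPM at 24 h and 10.6 to 21.1 TPM at 48 and 72 h, against 52.1, 43.0 and 46.8 TPM in the egg. In rRNA-depleted eggs HyS0385.1 was more abundant, with a mean of 2106 TPM, against 1260 TPM for HyS0385.2. HyS0385.2 did not pass the test (log2 fold change -0.06, edgeR adjusted p = 0.905), and the larval values lay on both sides of the egg values.

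The most extreme models have no names in the files. HyS0008.263, with a coding length of 414 bases, had 10540 and 7349 TPM at 24 h, 7650 and 7362 TPM at 48 h and 1737 and 2682 TPM at 72 h, and 0 counts in every egg library, at least 15200-fold higher. HyS0030.56 had 470 to 1561 TPM in larvae (median 835 TPM) and 0 counts in every egg library, at least 10900-fold higher, and its mean at 7 h was 0 TPM. HyS0045.24 had 6.83 and 7.25 TPM at 24 h, 2.53 and 0.558 TPM at 48 h and 0 TPM in both libraries at 72 h, against 2175, 2092 and 2041 TPM in the egg (log2 fold change -11.36, standard error 0.29, edgeR adjusted p = 2.19e-15). HyS0523.1 had 0 counts in all 6 larval libraries, against 14.5, 15.7 and 10.3 TPM in the egg, at least 186-fold lower.

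A set of 1148 gene models was larva-only by a fixed rule, under 1 TPM in every egg library and at 5 TPM or more in every larval library, and 88 were egg-only by the reverse rule. The rule fixed their difference, so their levels in egg and larvae are a description. Larva-only models had a median of 22.9 TPM in larvae and 512 of them had 0 counts in every egg library, and 126 reached a mean of 100 TPM. Egg-only models had a median of 0.233 TPM in larvae, against 15.0 TPM in the egg, and 5 had 0 counts in every larval library. Of the larva-only models 305 (26.6%) differed among larval stages, 152 of them highest at 24 h, 98 at 48 h and 55 at 72 h, beside 24.9% of all models.

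The rRNA-depleted egg libraries, which do not depend on a poly(A) tail, give a second view of the egg that the rule did not use. Of the 1148 larva-only models 36 reached a mean of 1 TPM there, and of the 88 egg-only models all 88 did, in every one of the 3 libraries. Among all 6035 models called higher in larvae with under 1 TPM in poly(A)+ eggs, 5823 were also under 1 TPM in rRNA-depleted eggs and 212 were not. For those 212 the egg means of the library types lay on different sides of 1 TPM. Whether each gene differed between library types was not tested.

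Embryos between the egg and the first larval stage show when the 2 sets appeared and went. Of the 1148 larva-only models 663 (57.8%) did not reach a mean of 1 TPM in any poly(A)+ stage up to 7 h. Another 82 first reached it at 4 h, 155 at 5 h, 137 at 6 h and 70 at 7 h, and 41 did so at 3 h or before. The stages at 5 and 6 h had 1 shallow library each from clutch B, so low levels there are measured less well. The egg-only models were mostly still present at 7 h, where 84 of 88 had a mean of at least 1 TPM and 38 had at least 50% of their egg mean, and their median was 7.10 and 8.90 TPM in the 2 libraries. By the rule all 88 were under 1 TPM at 24 h.

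Triptolide, an inhibitor of RNA polymerase II, was tested in other libraries of the series at 20 µM against 0.5% DMSO at 7 h, with 2 libraries each from clutches D and G, none of which are larval or egg libraries. Of all models tested 18.9% were lower and 5.04% higher in Triptolide than in DMSO. Of the 9326 models higher in larvae 2542 (27.3%) were lower in Triptolide and 193 (2.07%) were higher. Of the 5696 models lower in larvae 643 (11.3%) were lower and 644 (11.3%) were higher. The larva-only models had 481 (41.9%) lower and 2 higher, and the egg-only models had 1 lower and 28 (31.8%) higher. Whether these shares differ from the background was not tested.

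**Figure D5:**
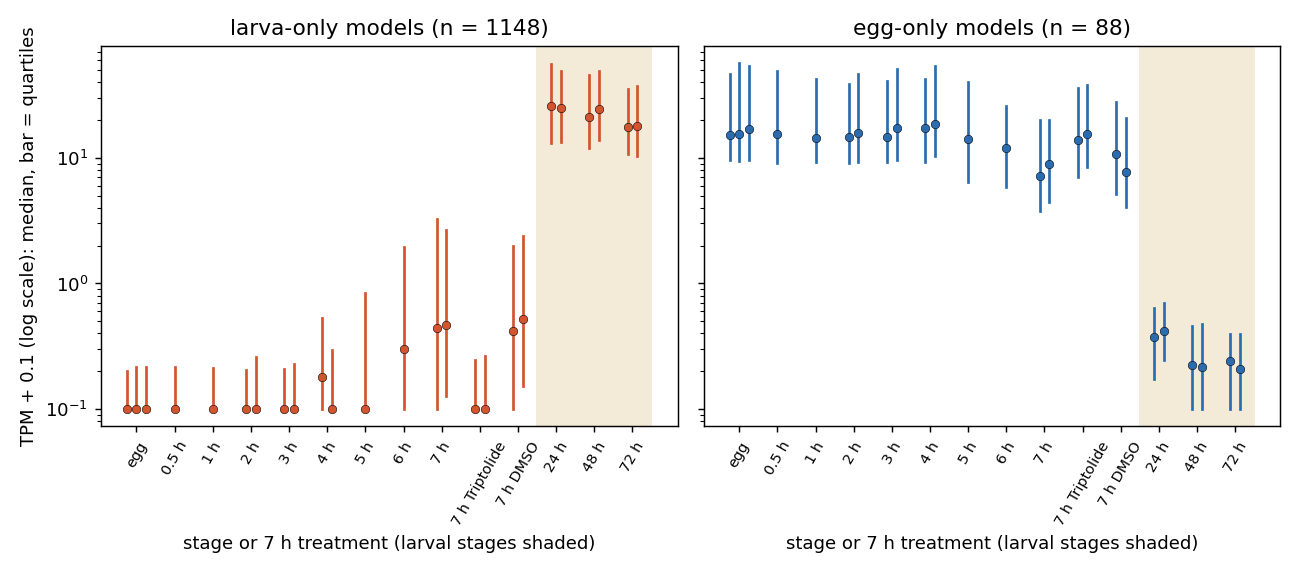
Median TPM + 0.1 (points) and quartiles (bars) of 1148 larva-only models (left panel) and 88 egg-only models (right panel) in each poly(A)+ library, from egg to 7 h, in the 7 h Triptolide and DMSO libraries, and in larvae (shaded). Larva-only models have medians of 0 to 0.417 TPM in every library before the larval stages, and egg-only models have medians of 13.7 and 15.4 TPM in Triptolide, against 10.6 and 7.62 TPM in DMSO.

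The same clutches and treatments also had libraries made by rRNA depletion, where 14.5% of 15944 models tested were lower and 17.9% higher in Triptolide than in DMSO. Of the models lower in larvae 195 of 5695 tested there (3.42%) were lower and 2048 (36.0%) were higher. Of the models higher in larvae 1745 of 6840 (25.5%) were lower and 422 (6.17%) were higher. The 2 library types were fitted separately, and the difference between them was not tested.

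The named genes were read one by one. Of the 22 activated H4K20 methyltransferase models, 19 were lower in Triptolide in poly(A)+ libraries, beside 18.9% of all models tested. The study sorted the 22 as activated in embryos of this same series. Their fall under an inhibitor of transcription is therefore not independent evidence. Of the 22 models in poly(A)+ libraries, 0 were higher in Triptolide and 3 did not pass (HyS0067.72, HyS1038.1 and HyS0035.153, edgeR adjusted p = 0.258, 0.0661 and 0.236). In rRNA-depleted libraries 21 of the 22 were lower, beside 14.5% of models tested there. Those 3 were among the 21 (edgeR adjusted p = 0.000858, 0.00889 and 0.0208), while HyS0082.41 did not pass there (edgeR adjusted p = 0.069). The largest poly(A)+ change among the 22 was in HyS0111.12, with a mean of 0.0925 TPM in Triptolide, against 165 TPM in DMSO (log2 fold change -10.72, edgeR adjusted p = 3.32e-07). H1.4 had 863 and 830.0 TPM per model in Triptolide (clutches D and G), against 637 and 675 TPM in DMSO, with no overlap, but it did not pass the test (log2 fold change 0.33, edgeR adjusted p = 0.221, and 0.255 with clutch as a block). In rRNA-depleted libraries it had 438 and 417 TPM in Triptolide, against 301 and 282 TPM in DMSO (log2 fold change 0.37, edgeR adjusted p = 0.0556, and 0.074 with the block).

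Smaug, HyS0020.263 and HyS0042.69 were lower in Triptolide in poly(A)+ libraries. Smaug had 15.3 and 19.0 TPM in Triptolide, against 44.3 and 48.9 TPM in DMSO, and its log2 fold change was -1.49 (edgeR adjusted p = 5.37e-05). For HyS0020.263 it was -1.28 (edgeR adjusted p = 0.000867) and for HyS0042.69 -1.11 (edgeR adjusted p = 0.000524). In rRNA-depleted libraries 0 of the 3 were called lower. Smaug had 90.8 and 92.2 TPM in Triptolide there, against 71.6 and 68.8 TPM in DMSO (log2 fold change 0.20, edgeR adjusted p = 0.126). HyS0020.263 and HyS0042.69 were higher, with log2 fold changes of 0.61 (edgeR adjusted p = 0.0106) and 0.36 (edgeR adjusted p = 0.0167).

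The retrovirus-related frame HyS4764.1 went against the other activated genes, with 131 TPM in Triptolide, against 1.84 TPM in DMSO (log2 fold change 6.12, edgeR adjusted p = 3.13e-07), and HyS0422.6 had 12.3 TPM in Triptolide, against 0.414 TPM in DMSO (log2 fold change 4.81, edgeR adjusted p = 0.000356). The study named both frames for being higher in Triptolide in this series, so their direction is not independent evidence.

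How far the 3 larval stages agreed was read from each stage against the egg. Of the 9326 higher models 7460 (80.0%) were called higher at each of 24, 48 and 72 h, and of the 5696 lower models 4281 (75.2%) were called lower at each. These 3 comparisons share the egg libraries. Within the larvae, where no egg library enters, 2071 of the higher models (22.2%) and 1881 of the lower models (33.0%) differed among stages, beside 24.9% of all models. That count is 2983 of all models when clutch E is left out at 24 h, and 1457 in a fit of the 6 larval libraries with clutch as a block.

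The last larval stage was also set against the first. Of the 5696 models lower in larvae, 1338 (23.5%) were lower and 779 (13.7%) higher at 72 h by edgeR, beside 15.0% lower and 13.4% higher over all models. Of the 9326 models higher in larvae 1019 (10.9%) were lower and 1362 (14.6%) higher. Among stage-varying models 1209 of the 1881 lower ones (64.3%) had their larval peak at 24 h, as HyS0034.48, Rfx7, E2f2 and Sox4 did, and 859 of the 2071 higher ones (41.5%) did, beside 2518 of all 4719 (53.4%).

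Gene models are numbered along each scaffold, so neighbours can be read from identifiers, although order within the genome assembly was not checked. Of the 1148 larva-only models 217 (18.9%) had a larva-only model with the next number up or down. Of the 2172 neighbouring places beside larva-only models 234 (10.8%) held another, while larva-only models make up 5.21% of all models. There were 84 runs of 2, 15 runs of 3 and 1 run of 4 such models, the last on scaffold HyS0016. No comparison with chance was made.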

How the data were processed

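RNA of whole larvae and unfertilized eggs was measured by strand-specific, paired-end RNA-seq after poly(A)+ selection. The authors trimmed reads with Trim Galore 0.6.6 and cutadapt 1.15 and pseudo-aligned them with kallisto 0.46.1 to protein-coding transcripts of assembly Hsym 1.0. The deposited values are estimated counts per gene model, not rounded and not normalized, and 23.3% of them were not whole. All lengths are multiples of 3 and were used as coding lengths. The 22022 identifiers matched 0 entries of the reference table, so names are those the study gives.

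Rounded counts were analysed in R 4.3.3 by edgeR 4.0.16. All 25 poly(A)+ libraries in 14 groups were fitted together, so that they share 1 estimate of the spread, over models with at least 10 reads in all, with TMM scaling, the quasi-likelihood F test and Benjamini-Hochberg adjustment at 0.05. Larvae over egg is the mean of the 3 stages minus the egg, and standard errors are the log2 fold change divided by the square root of F. p-values measure the spread between libraries of clutches and do not cover further clutches. TPM were computed from counts and coding lengths in Python 3.11.15 with pandas 2.3.3. Single values were tested with exact permutation tests in scipy 1.17.1. Counting intervals are exact 95% binomial intervals and, like floors of 3 counts per library, cover counting error only. The tests were tried on simulated counts.

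Named genes are those for which the study's text and tables or earlier results of these data gave an identifier. Added to these were the histone models on HyS0385, and the 2 higher and 2 lower models with the largest change among those called. For these last, only models with libraries that do not overlap and a mean of at least 5 TPM in the higher group were considered. The histone copies HyS0385.2 and HyS0385.5 belong to the HyS0385 models. The members and lists were chosen with earlier results of these data known. Alternatives were DESeq2 1.42.0, RLE size factors, other filters, library size only, other sets of libraries, a 2-fold minimum, a prior count of 0.5, a clutch block and leaving out each library. Other TMM reference libraries, leaving out larval clutch E or F, crossed clutch letters, leaving out libraries for the single values, a clutch block for Triptolide and a fit of 18 rRNA-depleted libraries in 11 groups were added after seeing the data. No sequences were used here.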

Additional observations from a re-analysis of the deposited data

Results flagged for a closer look

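Among the named genes and single values, 50 sets of 6 larval libraries were checked for a library far from the rest, and 2 were found, where chance flags about 1 in 20. Both were predicted H4K20 methyltransferase models, in the 24 h library of clutch F. HyS0001.141 had 71.6 TPM there and 33.8 to 43.8 TPM in the other larval libraries, and HyS0082.41 had 7.59 TPM there and 1.74 to 3.37 TPM in the others. The 6 libraries span 3 stages, so a stage difference can add to such a gap.

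The change from the egg differed among larval stages, by edgeR's F test over 3 stages, for 11 named models. DESeq2's likelihood ratio test over the larval libraries called 7 of them again, without HyS0117.8 (adjusted p = 0.562), both H1.4 models (adjusted p = 0.353) and Sox4 (adjusted p = 0.0873). The log2 fold change of 72 over 24 h was -1.34 for HyS0034.48, 0.0018 for HyS0117.8 (whose levels were lowest at 48 h), 0.32 for both H1.4 models HyS0030.125 and HyS2746.2 (lowest at 48 h), 3.71 for Etv3, -2.59 for Rfx7, -2.25 for E2f2, -0.93 for Sox4, -1.54 for HyS0008.263 and 0.49 for HyS0030.56 (highest at 48 h). For HyS0045.24 it was -9.04, a fitted value that depends on the prior count, since both libraries at 72 h had 0 counts.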

How the results depend on the processing

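No paired analysis was possible because larvae and eggs shared 0 clutch letters. Triptolide and DMSO libraries share clutches D and G by their labels, although their deviations were uncorrelated (r = -0.01 over 10655 models). With that clutch block, added after seeing the data, models higher in larvae were 2433 lower and 170 higher in Triptolide in poly(A)+ libraries. Models lower in larvae were 615 lower and 574 higher, and no list of named genes changed its count of calls there. In rRNA-depleted libraries the block took the retrovirus-related frames from 2 to 1 higher. It also took the HyS0385 histone models from 44 to 43 lower. Larval clutches E and F did not deviate together between stages (r of -0.32, -0.06 and -0.07 over 13723 models), so the letters were treated as names. The stage test called 4719 models, 2357 in a fit of the 6 larval libraries alone, 1457 with clutch as a replicate block, 2273 with the 24 h letters of the block crossed, and 2983 to 5412 without single libraries. A 2-fold minimum left 7479 higher and 3022 lower models. Larva-only models numbered 685 at 1 and 10 TPM and 2073 by group means, and egg-only models 42 at 0.5 and 5 TPM, 53 at 1 and 10 TPM and 175 by group means. Without single libraries, counts were 8042 to 8990 higher and 5597 to 6384 lower, 1153 to 1244 larva-only and 89 to 97 egg-only. The difference in detected models was 3390 to 3516 models and that in the top-100 share 13.0 to 15.0 percentage points; with 2 egg libraries the smallest possible p is 0.0714. Polynem turned from -0.17 to 0.044 with RLE and 0.043 with DESeq2. edgeR's TMM took a 7 h library of clutch B as reference, but a 7 h DMSO library of clutch D when an egg library was left out. Higher and lower counts were 9133 and 5900 with egg library A as reference, and 8523 and 6618 with clutch A at 4 h. Other alternatives kept both counts within 1.5 times. For larvae against egg, 4 of 47 named models changed call or direction under some alternative, HyS0117.8, HyS0067.72, HyS0035.153 and Polynem. Of the 11 named models that differed among larval stages by edgeR, DESeq2's likelihood ratio test called 7 and added 3, HyS0050.112, HyS0101.18 and HyS0059.50. Models with few reads in the shallower larval libraries are measured less precisely.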
